A study of Mus musculus with 23 samples.

Results

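The 36 genes described here are mouse genes whose human counterparts are mutated in inherited neuropathies and motor neuron diseases: Charcot-Marie-Tooth disease, distal hereditary motor neuropathy, amyotrophic lateral sclerosis, spinal muscular atrophy and hereditary spastic paraplegia. They were chosen by gene name, and all 36 were found among the 38924 gene IDs in the libraries. Patients with these diseases lose the function of long motor or sensory axons, or of the glia around them. The genes are expressed in many cell types, and most have no neuronal function alone. Several encode RNA-binding proteins, others clear damaged proteins through the proteasome and autophagy, and others shape the endoplasmic reticulum, fuse and divide mitochondria or move membranes along the axon.

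RNA bound to tagged ribosomes was precipitated from mouse spinal cord at 2 weeks of age (RiboTag) and sequenced in 23 libraries. All mice carried 1 copy of the haemagglutinin-tagged Rpl22 allele (Rpl+/-) on the background B6.CgxB6.129. The tag is made only where Cre recombinase acts. Under ChAT-Cre these are the cells that use acetylcholine, which include but are not limited to motor neurons. The 4 groups were mutants with Cre (Rpl+/-;Chat+/-;C201R+/-, 6 libraries), wild type with Cre (Rpl+/-;Chat+/-;C201R+/+, 5 libraries), mutants without Cre (Rpl+/-;Chat+/+;C201R+/-, 6 libraries) and wild type without Cre (Rpl+/-;Chat+/+;C201R+/+, 6 libraries). Mutants carried 1 C201R copy of Gars, the glycyl-tRNA synthetase gene, in every cell, and precipitates without Cre hold background RNA because no tagged protein is made. The comparisons ask which disease genes the tagged ribosomes carried and whether the Gars allele moved them.

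Total expected counts per library ran from 9031629 to 19671837, and ribosomal RNA-like genes held 50.6% to 95.6% of them. Chat, which makes acetylcholine, was higher with Cre by a log2 difference of 4.20 (SE 0.32, edgeR quasi-likelihood test, adjusted p = 5.79e-11), and all 9 measured motor neuron markers rose. Chat averaged 33.7 ± 13.7 CPM (counts scaled to library size) in mutant Cre and 56.1 ± 11.8 CPM in wild-type Cre, against 3.11 ± 2.64 and 2.25 ± 1.88 CPM in mutants and wild type without Cre (SD, n = 6, 5, 6 and 6). All 10 oligodendrocyte markers fell with Cre, but their transcripts were not absent there. Their summed level was 812 to 7168 CPM in mutant Cre and 552 to 3079 CPM in wild-type Cre precipitates. Without Cre it was 7490 to 16930 CPM in mutants and 7302 to 13771 CPM in wild type. Replicates 4 and 6 of mutant Cre, both of title number 18405, held the most of the Cre libraries (5224 and 7168 CPM), and replicate 2 held the most in wild-type Cre. The labels do not say whether each library came from its own animal, so each p-value reflects only how far libraries vary, and fewer cells of a type cannot be told apart from less RNA per cell in these bulk precipitates.

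Across the list, transcripts of 19 of the 35 tested genes rose with Cre and those of 5 fell, averaged over both genotypes (edgeR, adjusted p under 0.05 over all 14468 genes tested). Of all genes tested, 56.8% were called, 22.1% as higher and 34.7% as lower. The median change of the disease genes was 0.68 on the log2 scale, against -0.28 for all genes. Trpv4, a calcium-permeable cation channel, was too low to be tested, with no counts in any wild-type Cre library and 51 counts in all mutant Cre libraries. With library totals in place of TMM scaling the median of all genes moved to 0.39, and 21 disease genes rose and 0 fell. Without 4 Cre libraries, those with the highest glial marker levels, 22 rose and 3 fell. With a glial covariate 9 disease genes were called: Lrsam1, Sod1, Hint1, Chchd10, Reep1, Tfg, Bscl2, Sqstm1 and Vcp. All other rises and falls named below lost their averaged call in that fit. For these altered settings the share of all genes called is not given here, so the counts cannot be set against all genes.

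**Figure D1:**
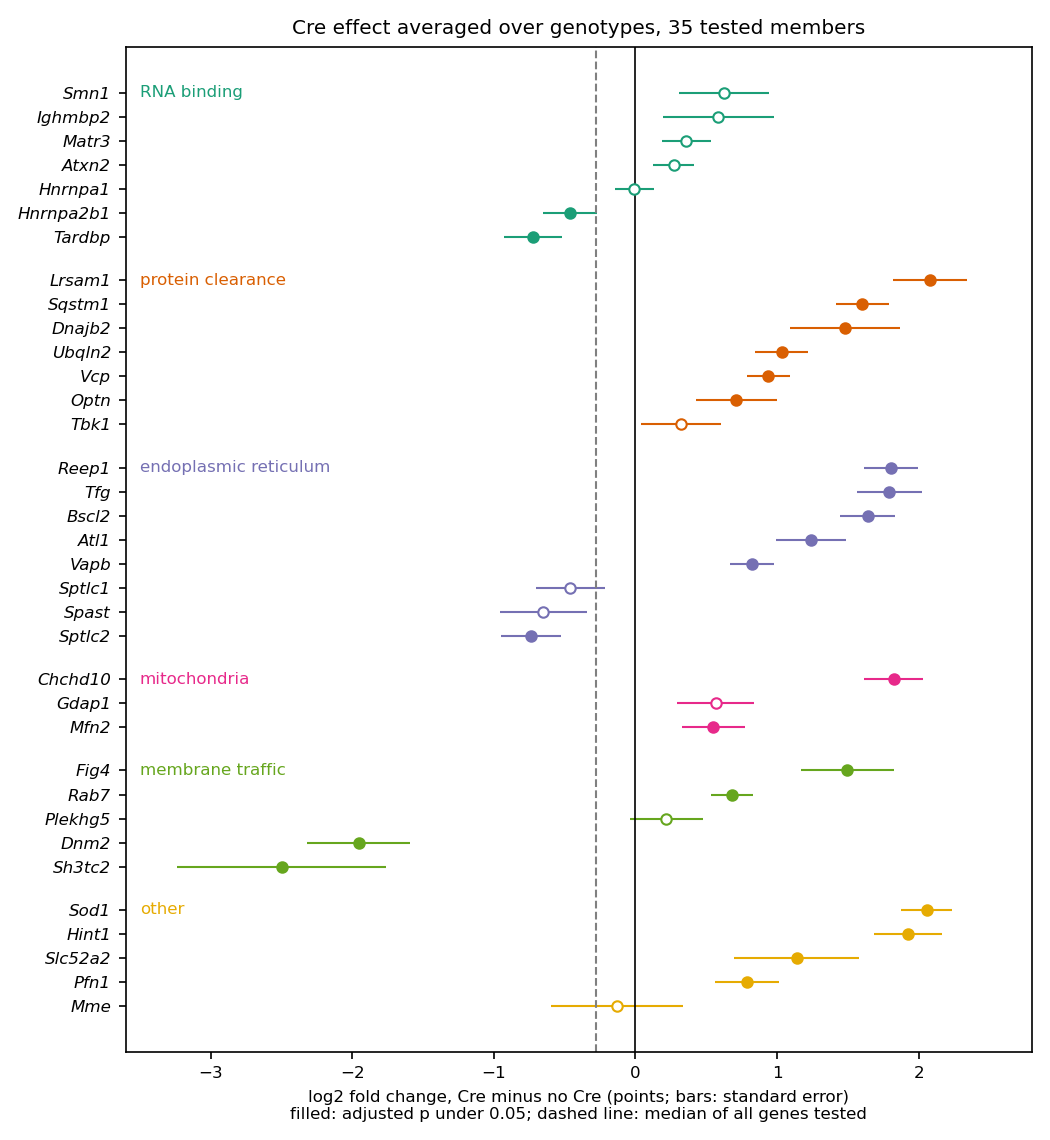
Difference with and without Cre on the log2 scale (points) with its standard error (bars), averaged over genotypes, for the 35 tested disease genes sorted by role. Filled points passed an adjusted p of 0.05, and the dashed line marks the median of all genes tested, -0.28. Points of the protein clearance group all lie right of 0, and Sh3tc2 and Dnm2 lie farthest left.

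Of 7 protein clearance genes 6 rose and 0 fell, with a median of 1.03. Lrsam1, an E3 ubiquitin ligase (chromosome 2, 32925216 to 32961614, minus strand, GENCODE M21 on GRCm38), rose the most of all 35. It stood at 8.40, 19.9 and 23.2 CPM (lowest, median and highest of 6) in mutant Cre libraries and at 30.9, 21, 33.6, 24.1 and 32.3 CPM in wild-type Cre replicates 1 to 5. Without Cre it had 1.76, 5.56 and 9.61 CPM in mutants and 2.97, 3.59 and 10.2 CPM in wild type. The Cre and no-Cre libraries overlapped, since mutant Cre replicate 6 had less than the highest no-Cre library of each genotype. The averaged difference was 2.08 (SE 0.26, adjusted p = 2.0e-07). Exons of Lrsam1 overlap those of Rpl12 and Fam129b on the opposite strand, and the labels do not say whether counting used strand.

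Sqstm1, the autophagy receptor that links ubiquitinated cargo to autophagosomes, rose by 1.60 (SE 0.19, adjusted p = 4.82e-08). It averaged 47.5 ± 9.91 CPM in mutant Cre and 70.8 ± 17.5 CPM in wild-type Cre libraries, against 18.3 ± 6.00 and 20.4 ± 7.77 CPM in mutants and wild type without Cre (SD, n = 6, 5, 6 and 6), and the ranges with and without Cre did not overlap. Dnajb2, a neuronal co-chaperone, rose by 1.48 and Ubqln2, which carries ubiquitinated proteins to the proteasome, by 1.03. Dnajb2 differed by 2.02 in mutants and by 1.00 in wild type, where it was not called. In wild type Dnajb2 had 4.91 to 21.2 CPM with Cre and 1.15 to 19.6 CPM without, which overlapped. Vcp, the ATPase that extracts ubiquitinated proteins from complexes, rose by 0.94 and Optn, another autophagy receptor, by 0.71, a call lost when either of 2 libraries was left out. Optn also lost it with a filter at 5 CPM (0.58, adjusted p = 0.0837). Tbk1, the kinase that phosphorylates such receptors, did not pass the test.

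Genes of the endoplasmic reticulum showed 5 rises and 1 fall among 8. Reep1, which shapes the membrane into tubules (chromosome 6, 71707561 to 71810710, plus strand), stood at 34.7, 72.3 and 94.6 CPM (lowest, median and highest) in mutant Cre and at 71.0, 66.4, 72.1, 66.3 and 77.1 CPM in wild-type Cre replicates 1 to 5. It stood at 8.81, 20.2 and 25.0 CPM in mutants and 12.8, 20.1 and 29.2 CPM in wild type without Cre. Every Cre library was above every no-Cre library, and the difference was 1.81 (SE 0.19, adjusted p = 8.25e-09). The 2 lowest Cre values were those of mutant replicates 4 and 6.

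Tfg, which organises transport at the exit sites of the endoplasmic reticulum (chromosome 16, 56690332 to 56717450, minus strand), also showed no overlap. It had 41.8, 55.9 and 69.2 CPM in mutant Cre and 73.4, 43.9, 68.7, 66.3 and 60.1 CPM in wild-type Cre libraries, against 10.1, 16.4 and 22.2 CPM in mutants and 2.46, 17.5 and 27.1 CPM in wild type without Cre. The difference was 1.79 (SE 0.23, adjusted p = 2.5e-07). Bscl2, which encodes the lipid droplet protein seipin, rose by 1.64. Its exons overlap those of Gng3 on the opposite strand, which held 46911 counts over all libraries against 5055 for Bscl2 and itself rose by 2.22. Atl1, a GTPase that fuses reticulum tubules, rose by 1.24 and Vapb, a tether at membrane contacts, by 0.82.

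Sptlc2, a subunit gene of serine palmitoyltransferase, which starts sphingolipid synthesis, fell, with a log2 difference of -0.74 (SE 0.21, adjusted p = 0.00425), with 9.90, 11.5 and 13.6 CPM in mutant Cre and 5.95, 12.8, 7.36, 4.00 and 8.75 CPM in wild-type Cre libraries. Without Cre it had 5.17, 17.3 and 20.0 CPM in mutants and 12.8, 16.5 and 23.7 CPM in wild type. Cre and no-Cre values overlapped in mutants, and in wild type the highest Cre value lay below the lowest no-Cre value by less than the rounding of these values. The call was lost with the title number as a block (-0.49, adjusted p = 0.152), with a glial covariate (-0.27, adjusted p = 0.699), with library totals (-0.052, adjusted p = 0.946) and with no filter (-0.55, adjusted p = 0.0521). The other subunit gene Sptlc1 and Spast, which severs microtubules, did not pass the averaged test, and Spast had the lowest value of the genes that did not (-0.65, SE 0.31, adjusted p = 0.0728).

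Mitochondrial genes gave 2 rises among 3. Chchd10, a protein of the space between the mitochondrial membranes (chromosome 10, 75933130 to 75937747, plus strand), had 87.1, 103 and 155 CPM in mutant Cre and 128, 72, 111, 99.6 and 114 CPM in wild-type Cre libraries. It had 20.0, 25.3 and 42.3 CPM in mutants and 16.3, 26.1 and 58.1 CPM in wild type without Cre, so the 11 Cre libraries lay above the 12 others. The difference was 1.82 (SE 0.21, adjusted p = 3.48e-08). Mfn2, the outer-membrane fusion GTPase, rose by 0.55 (SE 0.22, adjusted p = 0.0346), a call that was lost when any 1 of 6 libraries was left out. It was also lost with a filter at 5 CPM (0.40, adjusted p = 0.13). Gdap1, an outer-membrane protein of mitochondrial fission, did not pass.

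Of 5 membrane traffic genes tested, 2 rose and 2 fell, and Plekhg5, a guanine nucleotide exchange factor, did not pass. Fig4, a phosphoinositide phosphatase, rose by 1.49 and Rab7, the GTPase of late endosomes, by 0.68. Fig4 lost its call with the title number as a block (1.21, adjusted p = 0.0643) and with a glial covariate (1.23, adjusted p = 0.137). Dnm2, the dynamin that cuts membrane necks (chromosome 9, 21424908 to 21507759, plus strand), fell, with a difference of -1.95 (SE 0.36, adjusted p = 5.48e-05). It had 3.26, 5.22 and 14.9 CPM in mutant Cre and 4.76, 7.45, 4.88, 4.53 and 5.91 CPM in wild-type Cre libraries, against 14.7, 16.8 and 112 CPM in mutants and 5.51, 18.1 and 37.4 CPM in wild type without Cre. The 2 highest Cre values, 14.5 and 14.9 CPM, were those of mutant replicates 4 and 6. The fall in mutants alone was -2.11 (adjusted p = 0.0106) and -1.03 without mutant no-Cre replicate 5, where it lost the call (adjusted p = 0.0547). Expected counts of Dnm2 were whole numbers in 7 of 23 libraries, and RSEM gives fractions where it divides reads among models.

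Sh3tc2, an endosome recycling gene known from Schwann cells, the myelinating glia of nerves, had the largest fall at -2.50 (SE 0.73, adjusted p = 0.0051). The call was lost with the title number as a block (-1.64, adjusted p = 0.146), with library totals (-1.34, adjusted p = 0.188) and with a glial covariate (-0.99, adjusted p = 0.61). It was hardly detected in Cre precipitates, with 68 counts over the 6 mutant Cre libraries and 10 over the 5 wild-type Cre libraries. Precipitates without Cre held 104 counts in mutants and 82 in wild type. It was at 0 in 2 mutant Cre and 3 wild-type Cre libraries, and mutant Cre replicates 4 and 6 held 40 and 12 of the 68 counts. Summed Schwann cell markers ranged over 25.2 to 498 CPM in mutant Cre, 17.1 to 123 CPM with Cre in wild type, 165 to 319 CPM in mutants without Cre and 230 to 470 CPM in wild type without Cre, and 5 of 7 fell. Their part in the Sh3tc2 result was not tested.

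Of the remaining genes, 4 of 5 tested rose. Sod1, the copper-zinc superoxide dismutase that removes superoxide (chromosome 16, 90220754 to 90226329, plus strand), stood at 78.9, 111 and 141 CPM in mutant Cre and at 207, 104, 187, 186 and 172 CPM in wild-type Cre replicates 1 to 5. It stood at 27.3, 28.7 and 48.2 CPM in mutants and 23.2, 32.9 and 50.7 CPM in wild type without Cre. No value overlapped between Cre and no-Cre libraries, and the difference of 2.06 (SE 0.18, adjusted p = 3.8e-10) had the smallest p among the disease genes. Hint1, a nucleotide-binding hydrolase whose human gene is mutated in neuropathy with neuromyotonia (chromosome 11, 54866383 to 54870501, plus strand), rose by 1.92 (SE 0.24, adjusted p = 1.58e-07). It had 69.9, 94.5 and 131 CPM in mutant Cre and 211, 73.4, 186, 175 and 137 CPM in wild-type Cre libraries, against 20.6, 36.1 and 64.0 CPM and 14.4, 20.9 and 53.1 CPM without Cre in mutants and wild type. Slc52a2, a riboflavin transporter, rose by 1.14, and Pfn1, which binds actin monomers, by 0.79. Slc52a2 lost its call without the 4 glia-rich Cre libraries (1.19, adjusted p = 0.0628) and with a glial covariate (1.45, adjusted p = 0.188). The membrane peptidase gene Mme did not pass.

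RNA-binding genes showed no rise that passed the test: 0 of 7 were higher and 2 were lower. Tardbp, whose protein forms the inclusions of most amyotrophic lateral sclerosis (chromosome 4, 148612382 to 148627019, minus strand), fell, with a difference of -0.72 (SE 0.21, adjusted p = 0.00408). It had 28.3, 36.2 and 40.5 CPM in mutant Cre and 22.2, 25.2, 36.6, 40.3 and 32.6 CPM in wild-type Cre libraries. Without Cre it had 35.1, 45.6 and 74.6 CPM in mutants and 30.4, 50.2 and 148 CPM in wild type, overlapping the Cre range in both genotypes. Without the same 4 glia-rich Cre libraries its difference was -0.53 (adjusted p = 0.0704). Hnrnpa2b1, a heterogeneous nuclear ribonucleoprotein, fell, with a difference of -0.46 (SE 0.19, adjusted p = 0.0377), a call lost when any 1 of 15 libraries was left out. Its values overlapped widely, with 82.9, 108 and 166 CPM in mutant Cre and 150, 68.8, 123, 100 and 89.1 CPM in wild-type Cre, against 99.8, 128 and 302 CPM and 127, 152 and 184 CPM in mutants and wild type without Cre. Smn1, which assembles spliceosomal ribonucleoproteins and is lost in spinal muscular atrophy, had the highest value of the genes that did not pass (0.63, SE 0.32, adjusted p = 0.0925). Matr3, Hnrnpa1, Atxn2 and Ighmbp2 lay between -0.01 and 0.58. With library totals in place of TMM scaling, Tardbp and Hnrnpa2b1 stood above 0 (0.06 and 0.25) but below the median of all genes, by 0.33 and 0.14.

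**Figure D2:**
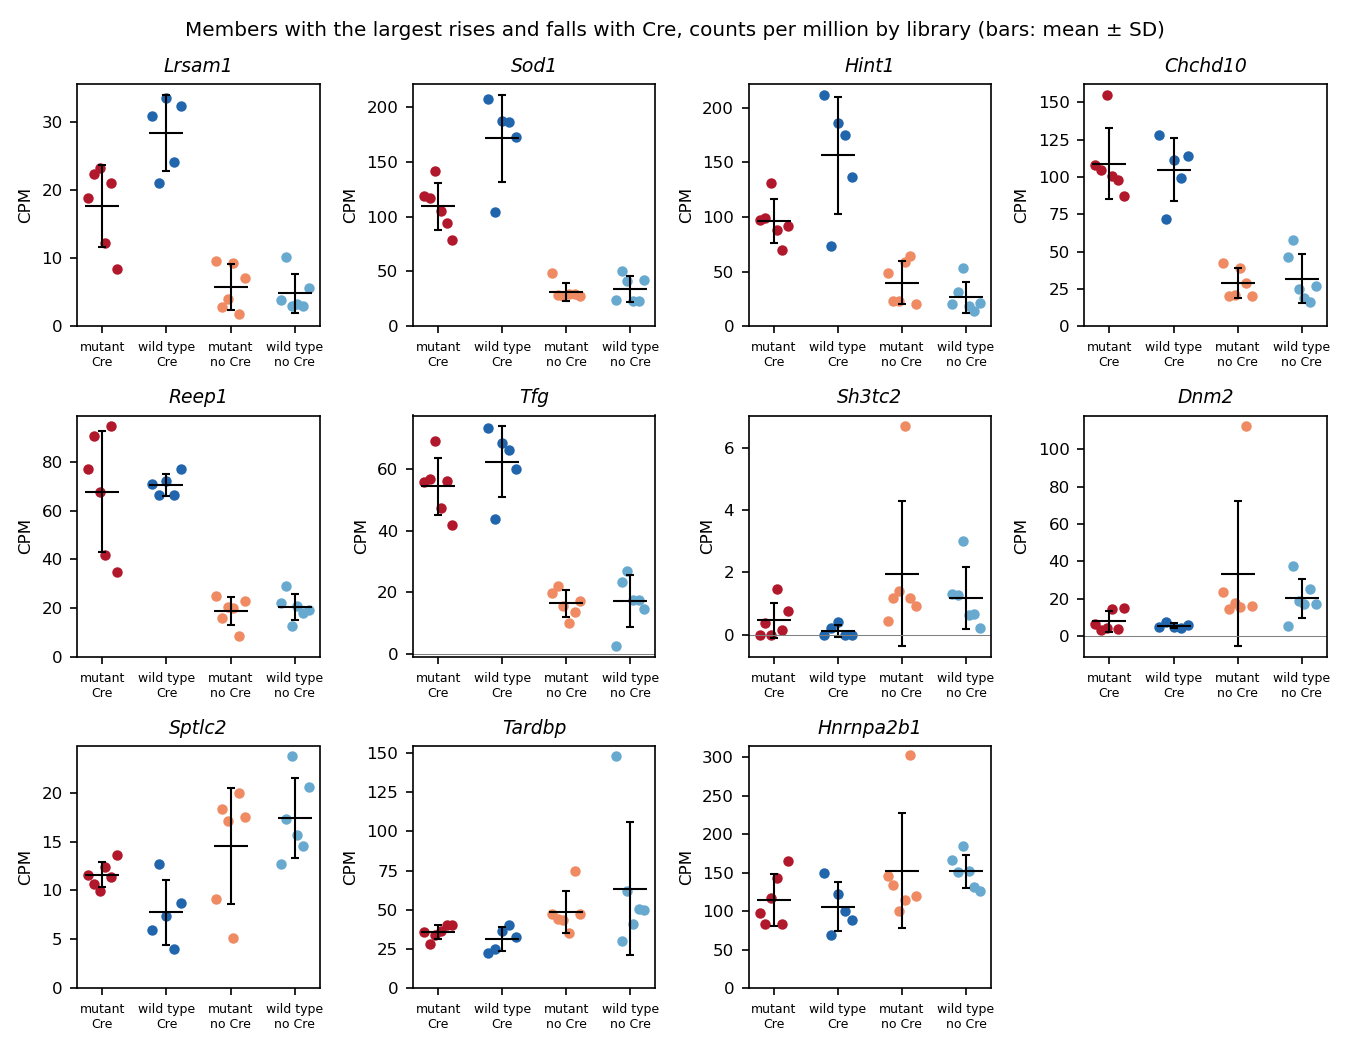
CPM in each library (points) with the mean and SD of each group (bars) for the 6 disease genes with the largest rises and the 5 that fell, averaged over genotypes. The Cre libraries lie above all no-Cre libraries for Sod1, Hint1, Chchd10, Reep1 and Tfg, and mutant no-Cre replicate 5 stands apart for Dnm2 at 112 CPM.

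In 6 of the 35 tested genes the 11 Cre and 12 no-Cre libraries did not overlap, against 8.67% of all genes tested: Sqstm1, Reep1, Tfg, Chchd10, Sod1 and Hint1. Within genotypes, 18 of 35 rose and 2 fell in mutants, where 14.1% of all genes were called higher and 19.2% lower. In wild type 15 of 34 rose and 3 fell, where 20% of all genes were called higher and 25.9% lower. The wild-type count of 18 was 5 with library totals in place of TMM scaling and 0 with a glial covariate, and that in mutants was 9 with the covariate. Shares of all genes called in those fits are not given here. The covariate is the mean log2(CPM + 1) of oligodendrocyte, astrocyte and microglia markers. In wild type it was 2.75 to 4.14 with Cre and 5.23 to 5.48 without, so that fit cannot tell glial level from Cre. In all, 33.3% of genes were called in mutants and 46% in wild type. In 14 disease genes in mutants and 14 in wild type, Cre and no-Cre libraries did not overlap, against 17.5% and 28.2% of all genes. Hint1 differed by 1.22 in mutants and 2.66 in wild type, and Gdap1 by 1.24 (adjusted p = 0.012) in mutants and -0.08 (adjusted p = 0.876) in wild type. In wild type without Cre, Gdap1 had 63.3 CPM in replicate 2 and 8.96 to 21.3 CPM in the others.

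Per kilobase of effective transcript length, levels within Cre precipitates spanned a wide range. Sod1 was highest with 219 ± 42.8 CPM per kilobase in mutant Cre and 340 ± 77.4 in wild-type Cre libraries (SD, n = 6 and 5). Hint1 followed with 196 ± 40.4 and 317 ± 108, which overlapped the Sod1 values, and Chchd10 with 137 ± 29.8 and 132 ± 26.1. At the low end Sh3tc2 had 0.104 ± 0.129 and 0.0288 ± 0.0425 CPM per kilobase in mutant and wild-type Cre. The 3 most abundant are also short transcripts, from 636 to 939 bases on average over the libraries. Across the 35 tested genes, length and Cre effect had a Spearman rank correlation of -0.34, and across 13312 tested protein-coding genes -0.31. Both are across genes in the same libraries, which are not independent replicates. The 6 disease genes under 1500 bases had a median Cre effect of 1.65 and the other 29 of 0.57, against 0.46 and -0.37 for 2800 shorter and 10512 longer protein-coding genes. The part of transcript length in the Cre effects was not tested.

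**Figure D3:**
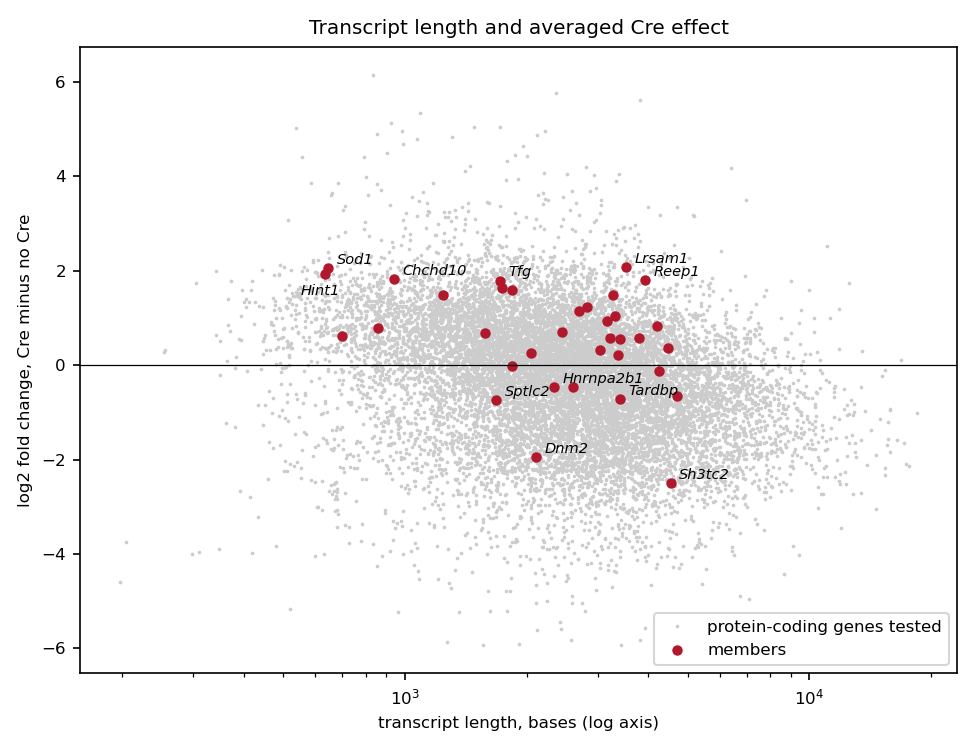
Difference with and without Cre on the log2 scale against transcript length in bases (log axis) for 13312 protein-coding genes (grey) and the 35 tested disease genes (red). Sod1, Hint1 and Chchd10 lie at the short end with values near 2, while Lrsam1 and Reep1 reach similar values at 3523 and 3924 bases.

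Promoters of disease genes that rose together, and of one that fell, are shown to set their sequence beside the values above. RefSeq start sites (GRCm38.p6) were matched for 30 of the 36 genes, with 43 promoters of 300 bases around the start. Capitals mark the GC box GGGCGG, the CCAAT box CCAAT and the antioxidant response element core TGACNNNGC, on either strand, and adjoining matches run together. These 4 were chosen after their values were seen.
Sod1, chr16:90220512-90220811, plus strand: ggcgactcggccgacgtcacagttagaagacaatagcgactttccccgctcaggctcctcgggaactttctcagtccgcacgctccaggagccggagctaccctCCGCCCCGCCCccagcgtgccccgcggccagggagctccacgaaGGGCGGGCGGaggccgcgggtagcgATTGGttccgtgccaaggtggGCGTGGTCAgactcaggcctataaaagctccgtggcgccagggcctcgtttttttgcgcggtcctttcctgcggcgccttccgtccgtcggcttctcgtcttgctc
Reep1, chr6:71707431-71707730, plus strand: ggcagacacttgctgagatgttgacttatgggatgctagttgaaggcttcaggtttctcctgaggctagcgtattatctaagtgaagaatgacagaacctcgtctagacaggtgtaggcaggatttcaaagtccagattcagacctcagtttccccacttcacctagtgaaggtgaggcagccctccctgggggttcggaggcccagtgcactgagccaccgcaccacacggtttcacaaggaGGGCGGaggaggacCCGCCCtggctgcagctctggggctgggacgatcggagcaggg
Tfg, chr16:56717401-56717700, minus strand: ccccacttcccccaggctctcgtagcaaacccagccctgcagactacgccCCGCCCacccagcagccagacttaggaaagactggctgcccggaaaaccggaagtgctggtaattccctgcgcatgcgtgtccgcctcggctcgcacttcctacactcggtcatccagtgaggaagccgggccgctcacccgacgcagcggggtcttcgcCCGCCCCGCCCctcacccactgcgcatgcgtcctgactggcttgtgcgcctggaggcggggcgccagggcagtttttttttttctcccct
Dnm2, chr9:21424658-21424957, plus strand: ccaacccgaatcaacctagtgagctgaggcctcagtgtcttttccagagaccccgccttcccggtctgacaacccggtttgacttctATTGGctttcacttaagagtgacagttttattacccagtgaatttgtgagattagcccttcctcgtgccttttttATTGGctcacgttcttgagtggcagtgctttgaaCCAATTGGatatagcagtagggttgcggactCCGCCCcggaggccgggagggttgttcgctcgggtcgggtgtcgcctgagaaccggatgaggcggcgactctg

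A GC box was in 31 of the 43 promoters (72.1%), against 61.2% of 13244 promoters of tested genes and 35.7% of 32851 promoters of all genes. It was present in Dnm2, which fell, as in Sod1, Reep1 and Tfg, which rose. The CCAAT box was in 32.6% of the disease gene promoters, against 37.3% of those of tested genes. The antioxidant core was in 14.0%, against 14.1%. The CHOP-ATF4 element TGATGNAA was in 3 promoters (6.98%, against 2.21%), of Chchd10 and Hnrnpa2b1, and the NRF1 motif in 1 (2.33%, against 1.90%), of Vapb. These are letter matches and say nothing of binding.

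The Gars allele changed no disease gene past the threshold in Cre precipitates. With edgeR's quasi-likelihood test and Benjamini-Hochberg adjustment, 0 of 34 tested genes were called, where 0.331% of 12399 genes were, and 12 had an unadjusted p under 0.05, against 17% of all genes. DESeq2 called 1, Sod1 (3.33% of all genes, 2.35% lower), and limma-voom with quality weights called 7, 6 of them lower (7% of all genes, 4.89% lower). The changes leaned one way: 24 of 34 lay below 0 and their median was -0.20, against 0.06 for all genes. All 7 protein clearance genes lay below 0, with a median of -0.49 on the log2 scale, while the 7 RNA-binding genes had a median of -0.06. With library totals in place of TMM scaling the median of the disease genes was 0.68, close to the 0.79 of all genes.

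The 6 genes with the smallest p were Sod1, Sqstm1, Lrsam1, Hint1, Vcp and Mme. Sod1 averaged 109 ± 21.6 CPM in mutant Cre and 171 ± 39.5 CPM in wild-type Cre libraries (SD, n = 6 and 5), a difference of -0.66 (SE 0.21, adjusted p = 0.162). Replicate 2 of wild-type Cre, at 104 CPM, lay within the mutant range, and the other 4 wild-type libraries at 172 CPM or more lay above it. Hint1 differed by -0.72 (SE 0.25, adjusted p = 0.199), with 96.1 ± 19.9 CPM in mutants and 156 ± 53.7 CPM in wild type, where replicate 2 again was lowest at 73.4 CPM. Sqstm1 differed by -0.59 (SE 0.20, adjusted p = 0.191) and Lrsam1 by -0.70 (SE 0.24, adjusted p = 0.194).

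Vcp had 70.8, 76.0 and 94.0 CPM (lowest, median and highest) in mutant Cre and 114, 84.3, 114, 116 and 102 CPM in wild-type Cre replicates 1 to 5, a difference of -0.43 (SE 0.16, adjusted p = 0.21). Only replicate 2 of wild type lay within the mutant range. Mme, which encodes neprilysin, a peptidase that cleaves neuropeptides, went the other way: 2.94, 4.33 and 5.09 CPM in mutant Cre, against 0.595, 2.15, 3.72, 1.74 and 0.227 CPM in wild-type Cre replicates 1 to 5. Its difference was 1.22 (SE 0.46, adjusted p = 0.224) and its counts were low, from 62 to 162 per library in mutants and 2 to 49 in wild type. The lowest difference was that of Dnajb2, -0.77 (SE 0.32, adjusted p = 0.257).

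**Figure D4:**
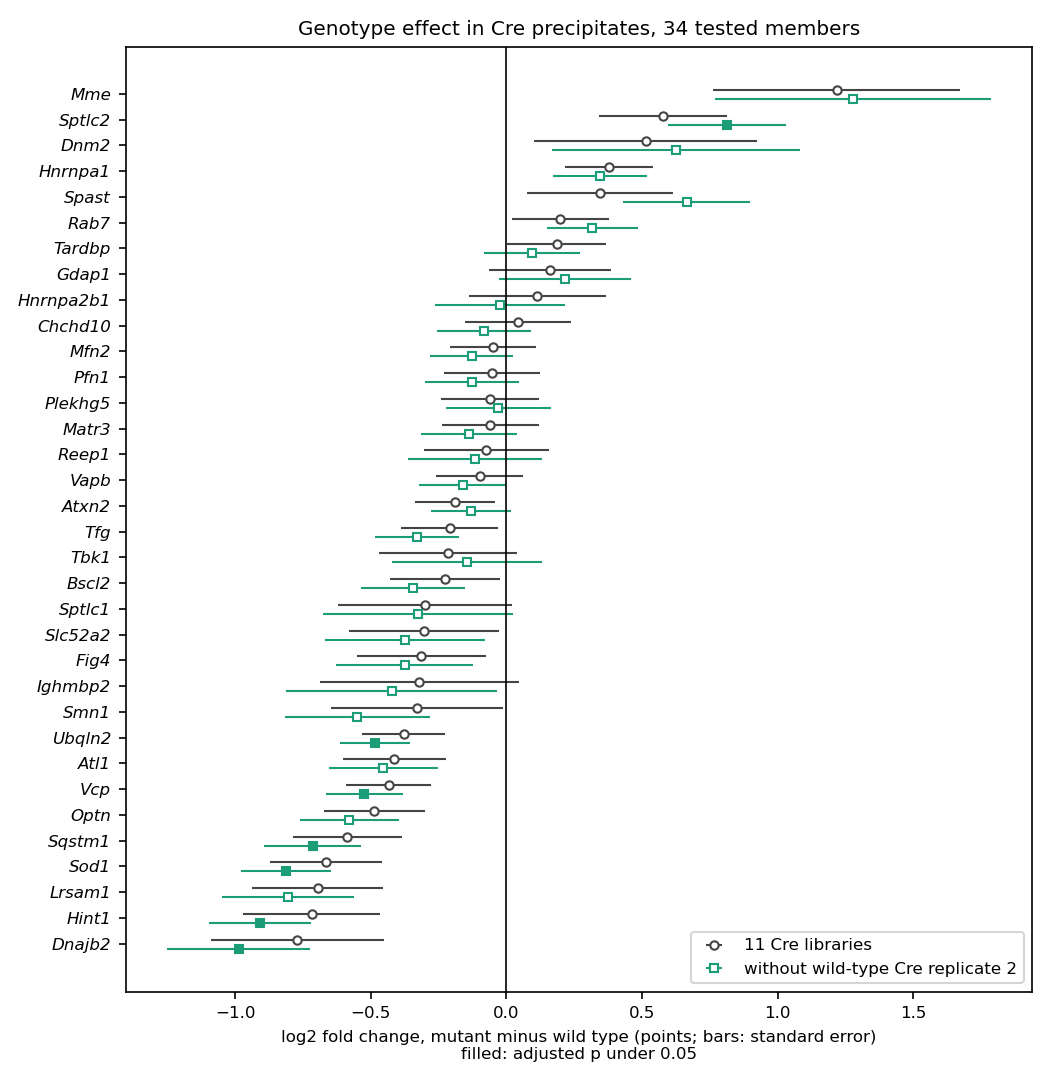
Difference between mutants and wild type on the log2 scale with its standard error in Cre precipitates, for 34 disease genes, from all 11 Cre libraries (circles) and without wild-type Cre replicate 2 (squares). Filled symbols passed an adjusted p of 0.05: none with all libraries, and 7 (Sod1, Hint1, Sqstm1, Vcp, Dnajb2, Ubqln2 and Sptlc2) without that replicate.

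The edgeR count of 0 depended on 1 library, besides the choice of test given above. That library, wild-type Cre replicate 2, had a ribosomal RNA-like share of 50.6%, and the other wild-type Cre libraries had 78.2% to 89.0%. Mutant Cre libraries had 53.0% to 75.3%. Any fit without replicate 2 leaves no overlap between the genotypes in this share, so genotype and share cannot be told apart there. Without wild-type Cre replicate 2, 6 disease genes were lower and 1 was higher in mutants, where 8.41% of 12531 genes were called and 5.04% were lower. Sod1 then differed by -0.81 (adjusted p = 0.0168), Hint1 by -0.91 (adjusted p = 0.0168), Dnajb2 by -0.99 (adjusted p = 0.0391), Sqstm1 by -0.71 (adjusted p = 0.0318), Vcp by -0.52 (adjusted p = 0.0392) and Ubqln2 by -0.48 (adjusted p = 0.0381) with edgeR. Sptlc2 was higher by 0.81 (adjusted p = 0.0389). Leaving out mutant replicates 4 and 6 as well gave 7 lower genes and 0 higher, with 10.9% of all genes called and 6.45% lower, and leaving out the 4 glia-rich Cre libraries gave 3 lower (Sod1, Hint1 and Vcp), with 4.54% called and 2.77% lower. Those 4 also include wild-type replicate 2, so these are not separate checks. Without any other single library, 0 were called.

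Summed motor neuron markers ranged over 177 to 559 CPM in mutant Cre, against 483 to 703 CPM with Cre in wild type, and Chat differed by -0.75 (SE 0.28, adjusted p = 0.22). Oligodendrocyte markers summed to a median of 1744 CPM in mutant Cre and 771 CPM in wild-type Cre. With edgeR on all 11 Cre libraries, no marker list held a called gene between genotypes. Chat was called by limma-voom (-0.74, adjusted p = 0.0400) and by edgeR without title number 18405 and wild-type replicate 2 together (-0.58, adjusted p = 0.0385). With the glial covariate, none of Sod1, Sqstm1, Lrsam1, Hint1, Vcp and Mme was called or changed direction between genotypes with Cre. Beyond that fit, the part of these cells in the results was not tested. Gars itself, heterozygous in mutants, stood at 70.1 ± 21.4 CPM in mutant Cre and 57.8 ± 10.6 CPM in wild-type Cre libraries (SD, n = 6 and 5), a difference of 0.26 (adjusted p = 0.532), which checks no label because the allele is a coding change.

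**Figure D5:**
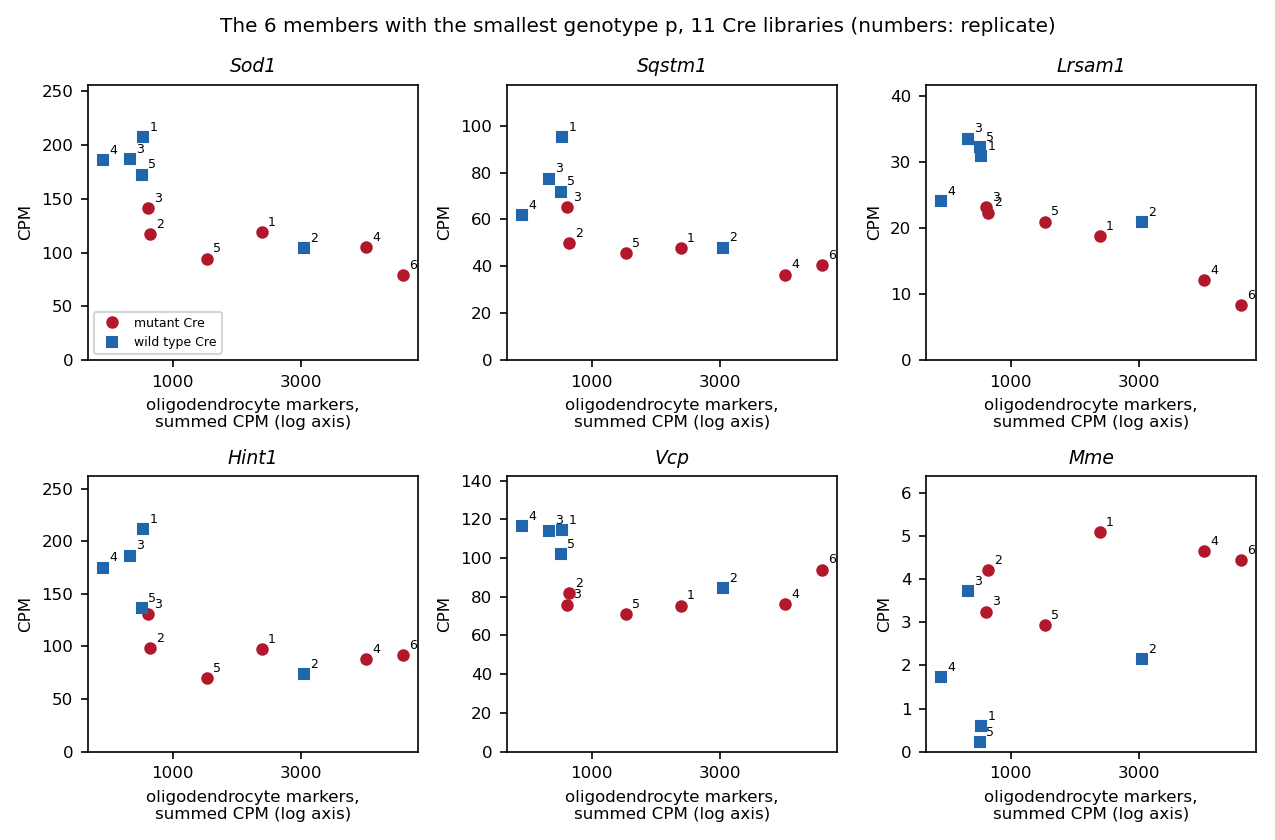
CPM of the 6 disease genes with the smallest genotype p against the summed CPM of 10 oligodendrocyte markers (log axis) in the 11 Cre libraries, numbered by replicate, for mutants (circles) and wild type (squares). Mutant replicates 4 and 6 lie farthest right and are lowest for Lrsam1, at 12.2 and 8.40 CPM, and wild-type replicate 2 lies apart from the other 4 wild-type libraries.

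Within single title numbers, which the labels do not explain and which serve here as possible batches, the genes picked above had the same directions. Among 2 mutant and 2 wild-type Cre libraries of title number 20302, Sod1 differed by -0.60 on the log2(CPM + 1) scale, Hint1 by -0.69, Sqstm1 by -0.60, Lrsam1 by -0.66, Vcp by -0.45 and Mme by 1.23. In title number 20401, again with 2 of each, the differences were -0.34, -0.38, -0.31, -0.20, -0.42 and 0.87 in that order. Wild-type Cre replicate 2 is in title number 20401. These values have no test. The libraries are among those by whose p-values the genes were picked, so equal directions were partly built in.

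In 1 disease gene, Hnrnpa1, mutant and wild-type Cre libraries did not overlap, against 2.28% of all genes tested. It was chosen after its values were seen. Hnrnpa1, a heterogeneous nuclear ribonucleoprotein, had 29.6 ± 3.10 CPM in mutant Cre, with a lowest value of 26.3, and 22.7 ± 4.35 CPM in wild-type Cre, with a highest value of 25.4 (SD, n = 6 and 5). The difference of 0.38 did not pass (adjusted p = 0.27). Its expected counts were whole numbers in 0 of 23 libraries, and RSEM gives fractions where it divides reads among models, so its level is uncertain.

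Without Cre, 0 of 34 tested genes differed between mutants and wild type by edgeR, DESeq2 or limma-voom, as did 0 of all 12588 genes in edgeR. At an unadjusted p under 0.05 there were 2, against 4.49% of all genes. Gdap1 had 3.52, 8.63 and 17.7 CPM in mutants and 8.96, 18.5 and 63.3 CPM in wild type without Cre, a difference of -1.34 (SE 0.46, adjusted p = 0.951). Dnajb2 had 1.00, 1.42 and 2.52 CPM in mutants and 1.15, 2.59 and 19.6 CPM in wild type without Cre, a difference of -1.99 (SE 0.69, adjusted p = 0.951). Both ranges overlapped.

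The difference of the genotype effects with and without Cre passed for 0 of 35 genes, where 0.0207% of all genes were called by edgeR, and 2 had an unadjusted p under 0.05, against 10.5% of all genes. DESeq2 and limma-voom called 0 as well. The 2 were Hint1 (-1.27, SE 0.47, adjusted p = 0.362) and Gdap1 (1.47, SE 0.55, adjusted p = 0.38). With single libraries left out, Hint1 ran from -1.59 to -1.09 and Gdap1 from 0.89 to 1.75.

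Other genes of these diseases were read from 4 lists of 104 genes (axonal neuropathy, myelin neuropathy, amyotrophic lateral sclerosis and spastic paraplegia). Of 101 tested, 34 rose and 40 fell with Cre, with a median of -0.09, against 56.8% of all genes called. Axonal neuropathy genes gave 18 rises and 11 falls among 38, spastic paraplegia genes 12 and 9 among 32, amyotrophic lateral sclerosis genes 4 and 10 among 19, and myelin neuropathy genes 1 and 11 among 15. The largest rises were those of the small heat shock protein gene Hspb1 (4.50, SE 0.39), the neuronal tubulin gene Tubb3 (3.23, SE 0.24), the choline transporter gene Slc5a7 (3.16, SE 0.32) and Hspb8, another small heat shock protein gene (2.57, SE 0.32). Hspb1 averaged 39.9 ± 15.6 CPM in mutant Cre and 62.1 ± 26.0 CPM in wild-type Cre, against 3.39 ± 2.86 and 1.26 ± 1.18 CPM in mutants and wild type without Cre.

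Among the largest falls in those lists were those of Fgd4, an exchange factor of Schwann cell myelin (-3.40, SE 0.37), the mitochondrial dehydrogenase gene Dhtkd1 (-3.38, SE 0.29) and the stress granule gene Tia1 (-2.89, SE 0.28). Fgd4 averaged 20.2 ± 10.3 CPM in mutant Cre and 51.0 ± 23.9 CPM in wild-type Cre, against 405 ± 379 and 283 ± 180 CPM in mutants and wild type without Cre (SD, n = 6, 5, 6 and 6). None of 99 tested genes of these lists was called between genotypes with Cre by edgeR, where 21 had an unadjusted p under 0.05, against 17% of all genes. DESeq2 called 3, against 3.33% of all genes, and limma-voom 6, against 7%. Without wild-type Cre replicate 2 edgeR called 9, against 8.41% of all genes. Without title number 18405 as well it called 12, against 10.9%, and without the 4 glia-rich Cre libraries 3, against 4.54%. The 3 smallest p were those of Fgd4 (-1.35, adjusted p = 0.112), the dynactin gene Dctn1 (-0.92, adjusted p = 0.126) and the tubulin gene Tuba4a (-0.78, adjusted p = 0.14), and without wild-type Cre replicate 2 their adjusted p were 0.0389, 0.0105 and 0.0213 in that order.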

How the data were processed

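The deposited tables hold RSEM expected counts and TPM per gene, and per the submitters' processing notes Bowtie2 2.2.0 and RSEM 1.2.12 were used. The genome build, the annotation and the use of strand were not given in the sources used here. RSEM divides reads that fit several models, and 13 of the 36 genes share exons with a model on the opposite strand. Expected counts were rounded and tested with edgeR 4.0.16 in R 4.3.3 (filterByExpr, minimum count 10, minimum total 15, TMM scaling, quasi-likelihood test, Benjamini-Hochberg adjustment over all genes). Levels are CPM with TMM scaling over 23 libraries. The TPM values the authors deposited, which have no TMM scaling, entered no test. Mean TPM was higher in mutant Cre than in wild-type Cre libraries where CPM was lower. This held for Sod1 (489 against 373), Hint1 (428 against 327) and Sqstm1 (57.4 against 47.3). It also held for Vcp (54.6 against 40.1) and Lrsam1 (12.7 against 9.34). DESeq2 1.42.0, limma 3.58.1, other filters and scalings, covariates and each library left out were alternatives. Positions come from GENCODE M21 (GRCm38) by gene ID, matched for 37607 of 38924 IDs. Members and lists were chosen with earlier results of these data known. Values by library are given for the 6 largest rises and up to 6 largest falls among called genes, the 6 smallest p between genotypes with Cre and the 2 smallest in each other genotype test. Of the other disease genes, 1 that the rule names is not reported here. The test was tried on simulated counts with 1 dispersion for all genes and the same RNA composition in all libraries, apart from genes changed on purpose. It therefore does not show how the test behaves in libraries as uneven as these. Replicate numbers follow accession order and pair nothing.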

Additional observations from a re-analysis of the deposited data

Results flagged for a closer look

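In 10 of 64 sets of values, each 1 gene in 1 group of libraries, a single value stood apart from the rest by Dixon's 95% criterion. Independent normal values meet it in about 1 set in 20. These were untransformed CPM, all 10 were the highest value, and the genes share libraries. The count therefore cannot be judged against that rate. In mutant Cre, Chchd10 had 155 CPM in replicate 3, where the others had 87.1 to 108 CPM. In mutants without Cre, replicate 5 stood apart for Dnm2 (112 CPM, others 14.7 to 23.7), Hnrnpa2b1 (302 CPM, others 99.8 to 146) and Tardbp (74.6 CPM, others 35.1 to 47.2). That library had the fewest counts outside ribosomal RNA-like genes, 594362. Also in mutants without Cre, Sh3tc2 had 6.67 CPM in replicate 4 (others 0.43 to 1.41) and Sod1 48.2 CPM in replicate 1 (others 27.3 to 29.4). In wild type without Cre, replicate 2 stood apart for Gdap1 (63.3 CPM, others 8.96 to 21.3), Lrsam1 (10.2 CPM, others 2.97 to 5.62) and Vcp (92.6 CPM, others 36.7 to 56.0), and replicate 1 for Tardbp (148 CPM, others 30.4 to 61.8).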

How the results depend on the processing

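The genotype count in Cre precipitates (0 with edgeR) was 1 with DESeq2, 7 with limma-voom, 7 without title number 18405 and wild-type Cre replicate 2 together, 3 without the 4 glia-rich Cre libraries, and 0 to 7 with single libraries left out. The last 2 sets of libraries were chosen after seeing the data. With a glial covariate, 9 genes were called in the averaged Cre effect, 0 in wild type and 9 in mutants, and with library totals 5 in wild type. No share of all genes called is given beside these counts. The covariate did not overlap between wild-type libraries with and without Cre, so that 0 does not tell glial level from Cre. With library totals in place of TMM, the median of all genes between genotypes with Cre moved from 0.06 to 0.79, and these stood above 0: Sod1 0.32, Sqstm1 0.36, Lrsam1 0.24, Hint1 0.31, Vcp 0.41, Dnajb2 0.31, Ubqln2 0.52, Optn 0.40, Chat 0.22, Dctn1 0.19 and Tuba4a 0.21. Relative to that median Sod1 stood at -0.48 and Vcp at -0.38. In the averaged Cre effect Hnrnpa2b1 was 0.25, Spast 0.15 and Tardbp 0.060, in mutants Sptlc1 was 0.37, and in the difference of genotype effects Hint1 was 0.29. With library totals 21 genes rose and 0 fell in mutants, against 18 and 2. The median of all genes in that comparison moved from -0.14 to 1.13. With the glial covariate Spast was 1.44 and Sptlc2 0.63 in wild type, and with single libraries left out Sh3tc2 ran from -0.17 to 1.26 between genotypes without Cre. The cause was not tested. With the title number as a replicate block Spast was 0.039 in the averaged Cre effect and 0 genes were called between genotypes with Cre, while Fig4, Sh3tc2, Sptlc2 and Hnrnpa2b1 lost their averaged Cre call. The numbers are not known to pair libraries. The block was not fitted for the Cre effect in mutants or the genotype effect without Cre, where the groups shared 1 title number. Over all genes, 41 were called between genotypes with Cre by edgeR, 413 by DESeq2 and 868 by limma-voom. Genes at a few counts, such as Sh3tc2 and Mme, are limited by depth.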

Other observations

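Of the 36 genes, 3 lie on chromosome 6 with Gars: Hnrnpa2b1 at 3.57 Mb, Reep1 at 16.6 Mb and Rab7 at 32.9 Mb from it. None was called between genotypes, with or without Cre, by edgeR, DESeq2 or limma-voom.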
